A study of Rattus norvegicus with 24 samples.

Results

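The 100 most abundant genes of control plantaris muscle were described across control and overloaded muscle of the rat. Plantaris is a calf muscle that shares its work with the gastrocnemius and the soleus. RNA was sequenced from females of 2 rat lines named HRT and LRT, which were bred for high and for low gains in running capacity with endurance training. Every animal came from generation 19 at an age of 14 months. In the HRT overload and LRT overload groups those 2 muscles had been ablated unilaterally 14 days before the plantaris was collected. The HRT control and LRT control groups are labelled as controls, and the labels do not say whether those muscles came from other animals or from the opposite leg. Each of the 4 groups had 6 libraries, with 26997674 to 34254957 estimated counts per library.

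Members were chosen by level alone. Counts were divided by the library total and multiplied by 1000000 (CPM), averaged over the 12 control libraries, and the 100 genes with the highest mean were kept out of 31998 genes in the table. The choice meant to leave out the 13 protein genes of the mitochondrial genome. The table gives Ensembl gene IDs without names, and 0 of these IDs matched the table of gene names used here, so those genes were not recognised and may be among the members. For the same reason the muscle identity of the tissue and the markers of other cell types could not be checked, and no member's function or sequence is given. Members are called by their rank in control muscle, and at most 2 IDs per direction are printed in each comparison. CPM is not divided by transcript length, so a rank orders genes by reads and not by molecules.

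A muscle fibre is a large, long-lived cell whose messenger RNA pool is dominated by few genes. In adult fast muscle these are known to be mainly genes for the proteins of the sarcomere (actin, myosin heavy and light chains, troponins and tropomyosins), for the calcium pump and calcium buffers, for glycolysis and the creatine kinase system, and for the respiratory chain. Removing synergist muscles loads the plantaris chronically, and the muscle enlarges while connective tissue and other non-muscle cells are remodelled around the fibres. In whole-muscle RNA, fewer fibres relative to other cells and less of a transcript per fibre cannot be told apart.

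In control muscle the members made up 0.313% of the genes and held 55.3% ± 0.995 of all counts (SD, n = 12 libraries; the value that chose them). Rank 1 alone held 8.14%, the first 2 genes held 14.5%, the first 10 held 31.3% and the first 50 held 48.6%. The first 58 genes were the fewest that held as many counts as all the others together. The mean level of rank 1 was 81415 CPM, 89.5 times that of rank 100. At the edge of the choice, the genes of ranks 99 and 100 had 933 ± 98.2 and 909 ± 112 CPM, and the next 2 genes, just outside, had 894 ± 44.8 and 890 ± 85.6 CPM (SD, n = 12). The last members and the first genes outside therefore differed by less than the spread between control libraries. Most members were chosen in either line alone: 97 of the members were among the 100 most abundant genes of HRT control muscle and 98 among those of LRT control muscle. Single control libraries held 92 to 99 of the members in their own first 100.

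After overload the members held a smaller part of the RNA pool in both lines. In HRT control muscle their share of counts had a low of 54.1%, a median of 54.7% and a high of 54.8%, and in HRT overload a low of 40.7%, a median of 44.5% and a high of 51.0%. The groups did not overlap, and the overloaded libraries lay in a low set (41.0%, 40.7% and 41.8% in replicates 1, 2 and 6) and a higher set (50.4%, 51.0% and 47.3% in replicates 3, 4 and 5). In LRT control muscle the share ran from 54.5% through a median of 55.8% to 57.5%, and in LRT overload from 46.7% through 51.4% to 52.9%. Here too the groups did not overlap, and 5 of the 6 overloaded libraries were above 50%. The mean fell by 9.25 percentage points in HRT, and in LRT it fell by 4.90 percentage points.

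Because the members were chosen on control libraries, this fall was tested with genes chosen in the controls of the other line, which do not enter the comparison. The 100 most abundant genes of LRT control muscle went from 54.5% ± 0.307 of counts in the HRT controls to 45.3% ± 4.81 after overload (SD, n = 6; two-sided exact permutation p = 0.00216, which no split of 6 against 6 can undercut, adjusted p = 0.00541 over 5 share tests). The 100 most abundant genes of HRT control muscle went from 55.8% ± 0.996 in the LRT controls to 51.0% ± 2.23 after overload (two-sided exact permutation p = 0.00216, adjusted p = 0.00541). RNA integrity differed between the same groups: the RNA integrity number (RIN) averaged 8.27 in HRT control and 8.97 in HRT overload, and 8.28 and 8.67 in LRT. Within HRT overload, RIN was 8.6, 8.6 and 9.2 in replicates 1, 2 and 6 and 9.4, 8.9 and 9.1 in replicates 3, 4 and 5. A link between RIN and the members' share was not tested. With RIN as a covariate the counts of members that fell, given below, were 82 and 70 in place of 81 and 65. In that fit 24.7% and 27.1% of all tested genes fell. Members that fell by more than 2-fold in HRT were 38 in place of 15. The matching share of all tested genes is not given for that fit, so the larger count is not read as particular to the members. The genes outside the members took up the difference only as a sum, which follows from the shares adding to 100%. Their summed share grew 1.20-fold in HRT and 1.11-fold in LRT. The next 100 genes in the control order lost share, from 6.16% to 5.14% in HRT and from 6.16% to 5.43% in LRT (group means).

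**Figure D1:**
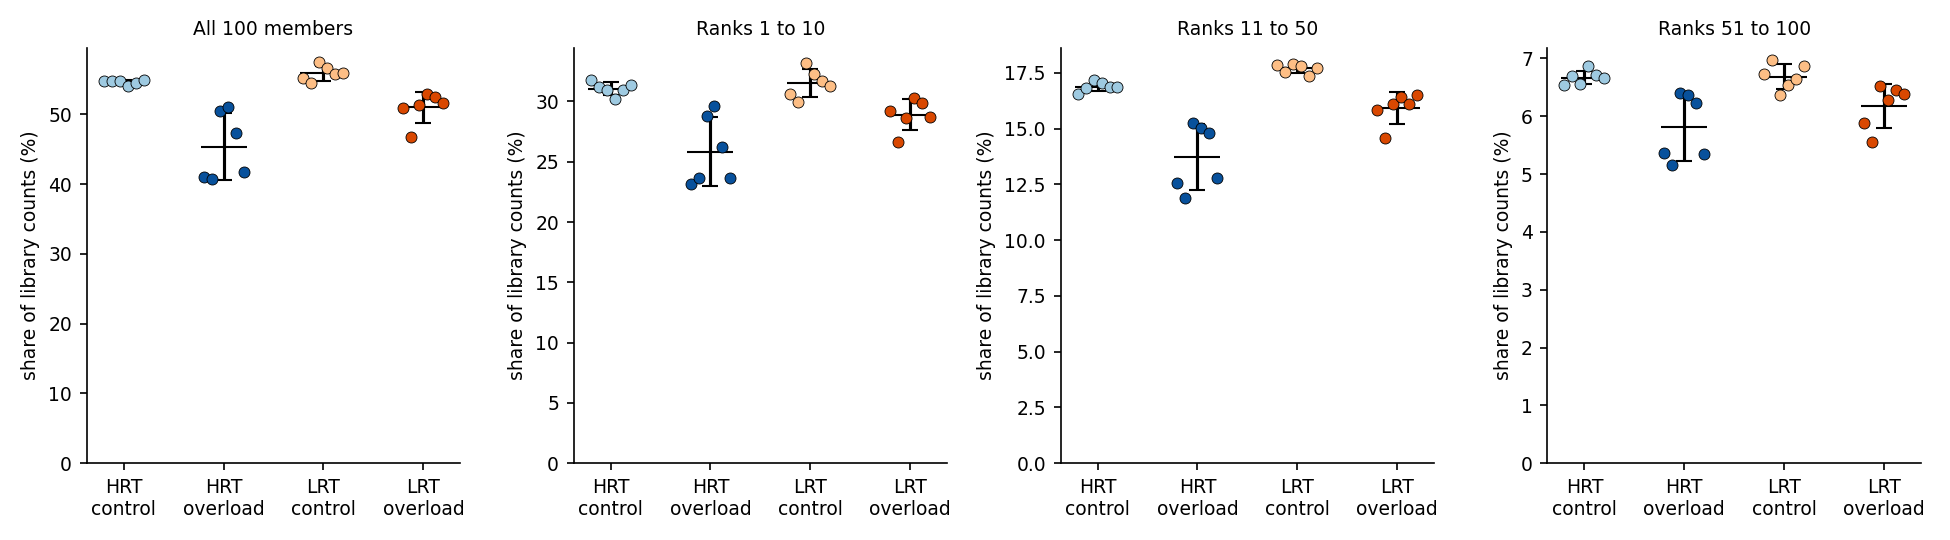
Share of library counts (%, y axis from 0) held by all 100 members and by members of ranks 1 to 10, 11 to 50 and 51 to 100, by group (x axis). Points are the 6 libraries of a group, the long bar is the mean and the whiskers are 1 SD. All overloaded libraries lie below the controls of their line in the left panel, and HRT overload splits into 3 libraries at 40.7 to 41.8% and 3 at 47.3 to 51.0%.

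The fall ran through the whole list. Ranks 1 to 10 went from 31.1% ± 0.519 to 25.8% ± 2.83 of counts in HRT and from 31.5% ± 1.17 to 28.9% ± 1.29 in LRT (SD, n = 6). Ranks 11 to 50 went from 16.9% ± 0.214 to 13.7% ± 1.47 in HRT and from 17.7% ± 0.199 to 15.9% ± 0.698 in LRT. Ranks 51 to 100 went from 6.67% ± 0.118 to 5.81% ± 0.582 in HRT and from 6.69% ± 0.219 to 6.18% ± 0.378 in LRT. Within the members' own pool the division between top and rest barely differed between groups. The first 10 genes held 56.9% ± 0.685 of the members' counts in HRT control, 56.9% ± 1.02 in HRT overload, 56.4% ± 1.06 in LRT control and 56.7% ± 0.713 in LRT overload, and these groups overlapped.

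By group means, the 2 leading genes changed places after overload. Rank 1 was the most abundant gene in 11 of 12 control libraries, and the gene of rank 2 was in the other one. After overload the gene of rank 2 led in 5 of 6 HRT libraries and in 3 of 6 LRT libraries. The rank 1 gene held 5.96% to 9.18% of counts in HRT control (median 8.08%) and 4.56% to 6.99% in HRT overload (median 5.19%). In LRT it held 7.49% to 9.55% in control (median 8.58%) and 6.65% to 7.51% in overload (median 6.92%). The ranges overlapped in both lines, and its log2 fold changes in HRT and LRT were −0.75 ± 0.16 and −0.51 ± 0.16 (SE; adjusted p = 0.000243 and 0.00808 by edgeR). With libraries scaled by their totals alone the LRT call was lost (−0.27, adjusted p = 0.0512 by edgeR). The rank 2 gene held 5.81% to 6.43% of counts in HRT control (median 6.32%) and 6.93% to 8.69% in HRT overload (median 7.65%), with no overlap. In LRT it held 5.71% to 8.26% in control (median 6.27%) and 6.77% to 7.48% in overload (median 7.25%), and the ranges overlapped.

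Whether the rank 2 gene itself rose depends on the scaling. The tests below scale libraries by the trimmed mean of M values (TMM), which sets the bulk of genes, and not the library total, to no change. On that scale its log2 fold change was 0.04 ± 0.11 in HRT and −0.11 ± 0.11 in LRT (SE; edgeR adjusted p = 0.758 and 0.405). With libraries scaled by their totals alone it was 0.33 ± 0.08 in HRT (edgeR adjusted p = 0.000999) and 0.13 ± 0.08 in LRT (edgeR adjusted p = 0.184). The ratio of the rank 2 to the rank 1 gene does not depend on scaling. In HRT it was 0.818 ± 0.156 in control and 1.45 ± 0.302 in overload, and 0.776 ± 0.0843 and 1.02 ± 0.0546 in LRT (SD, n = 6).

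**Figure D2:**
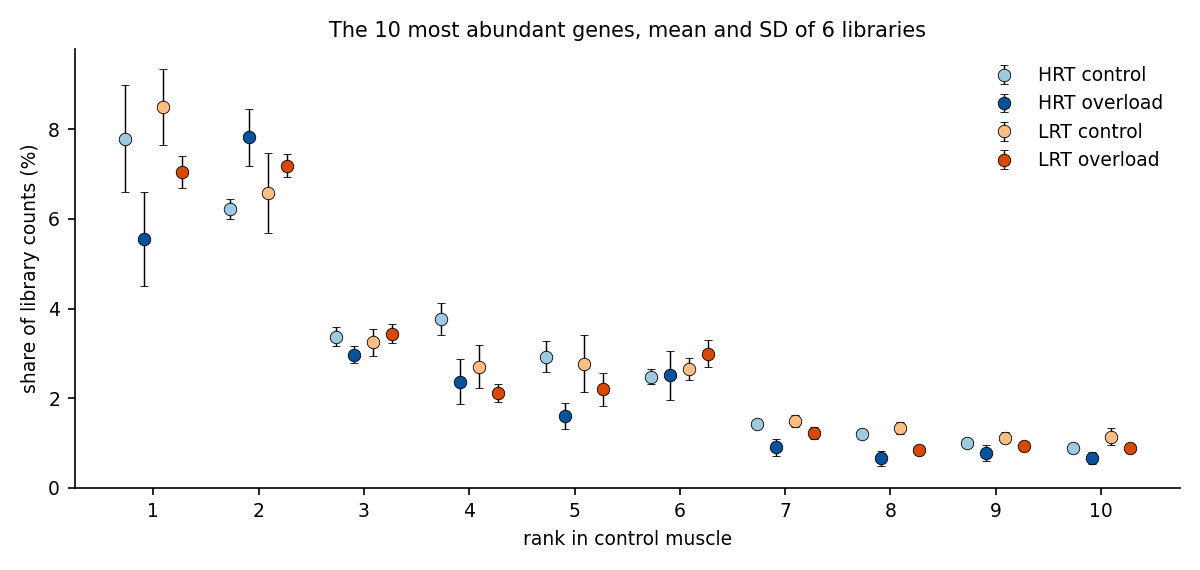
Share of library counts (%, y axis from 0) of the 10 most abundant genes, ordered by rank in control muscle (x axis), in the 4 groups. Points are means and bars 1 SD of 6 libraries. The rank 1 gene lies above the rank 2 gene in control muscle and below it after overload, where the HRT means are 5.56% and 7.82%.

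Among the other genes of the first 10, the deepest fall by log2 fold change was at rank 5 in HRT and at rank 8 in LRT. The gene of rank 5 held 2.53% to 3.41% of counts in HRT control (median 2.88%) and 1.32% to 2.01% in HRT overload (median 1.59%), without overlap. In LRT it held 2.22% to 3.87% in control (median 2.58%) and 1.77% to 2.60% in overload (median 2.26%), with overlap. Its log2 fold changes were −1.13 ± 0.18 in HRT and −0.57 ± 0.18 in LRT (SE; edgeR adjusted p = 8.5e-06 and 0.00902). At rank 8 the log2 fold changes were −1.12 ± 0.17 and −0.89 ± 0.17 (SE; edgeR adjusted p = 3.84e-06 and 8.3e-05). Rank 6 passed in neither line (−0.24 and −0.06 on the log2 scale, adjusted p = 0.193 and 0.775 by edgeR), and the gene of rank 3 passed in HRT and not in LRT (−0.46 and −0.15, edgeR adjusted p = 0.000647 and 0.237). The difference between lines was not past the threshold for the gene of rank 3 (edgeR adjusted p = 0.369).

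All 100 members had enough counts to be tested, among 16661 tested genes. In HRT 81 members fell and 3 rose, where 31.2% of all tested genes fell, 31.9% rose and 63.2% did either (edgeR quasi-likelihood test, adjusted p under 0.05). The median log2 fold change of the members was −0.68, against −0.02 over all tested genes. Falls of more than 2-fold were found for 15 members, 530 of 16661 tested genes and 13 of the next 100 genes in the control order. In LRT 65 members fell and 4 rose, where 28.3% of all tested genes fell, 28.9% rose and 57.2% did either. The members' median was −0.48, against −0.02 over all tested genes. In LRT 6 members fell by more than 2-fold, against 193 of 16661 tested genes and 2 of the next 100. The counts past 2-fold moved with single libraries, to 26 and 27 in HRT without HRT overload replicates 3 and 4, and to 2 and 3 in LRT without LRT overload replicates 2 and 6. In the fit to all 24 libraries no member rose by more than 2-fold in HRT or LRT, where 2554 and 2150 of 16661 tested genes did. Counts past 2-fold over all tested genes are given for that fit only, on the TMM scale and without covariates. With genes chosen in the controls of the other line, 81 fell and 4 rose in HRT and 64 fell and 4 rose in LRT. Of these genes 98 and 97 are members, so the counts are not a separate check.

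The calls rest partly on scaling. With libraries scaled by their totals alone, 67 members fell and 9 rose in HRT, where 13.4% of all tested genes fell and 47.7% rose. In LRT 51 members fell and 9 rose under that scaling, where 11.4% of all tested genes fell and 40.6% rose. Falls of more than 2-fold were then 3 in HRT and 0 in LRT, in place of 15 and 6, and 1 member in each line rose by more than 2-fold. The share of all tested genes past 2-fold under that scaling is not given. The change of scaling moved the median of all genes by 0.29 in HRT and 0.24 in LRT on the log2 scale. The members' median was then −0.41 in HRT and −0.25 in LRT. The sign differed between the scalings for 9 members in HRT and 17 in LRT, and 0 of these passed under both. The 6 libraries of each group did not overlap for 63 members that were lower in HRT overload and 54 that were lower in LRT overload, where 17.1% and 15.5% of all tested genes were so separated. They were higher without overlap for 1 member in HRT and 2 in LRT, against 21.4% and 17.3% of all tested genes.

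The high share of falling genes did not stop at rank 100. Of the next 100 genes in the control order, 83 fell and 2 rose in HRT and 70 fell and 2 rose in LRT, with median log2 fold changes of −0.67 and −0.47. Within the members the share that fell was 80.0% at ranks 1 to 10, 80.0% at ranks 11 to 50 and 82.0% at ranks 51 to 100 in HRT, and 70.0%, 60.0% and 68.0% in LRT. Further down the order it was 64.8% at ranks 501 to 1000 in HRT and 64.6% in LRT. Beyond rank 5000 rising genes outnumbered falling ones, at 38.4% against 20.3% in HRT and 35.5% against 16.4% in LRT. These shares are descriptions, and no difference between ranks was tested.

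**Figure D3:**
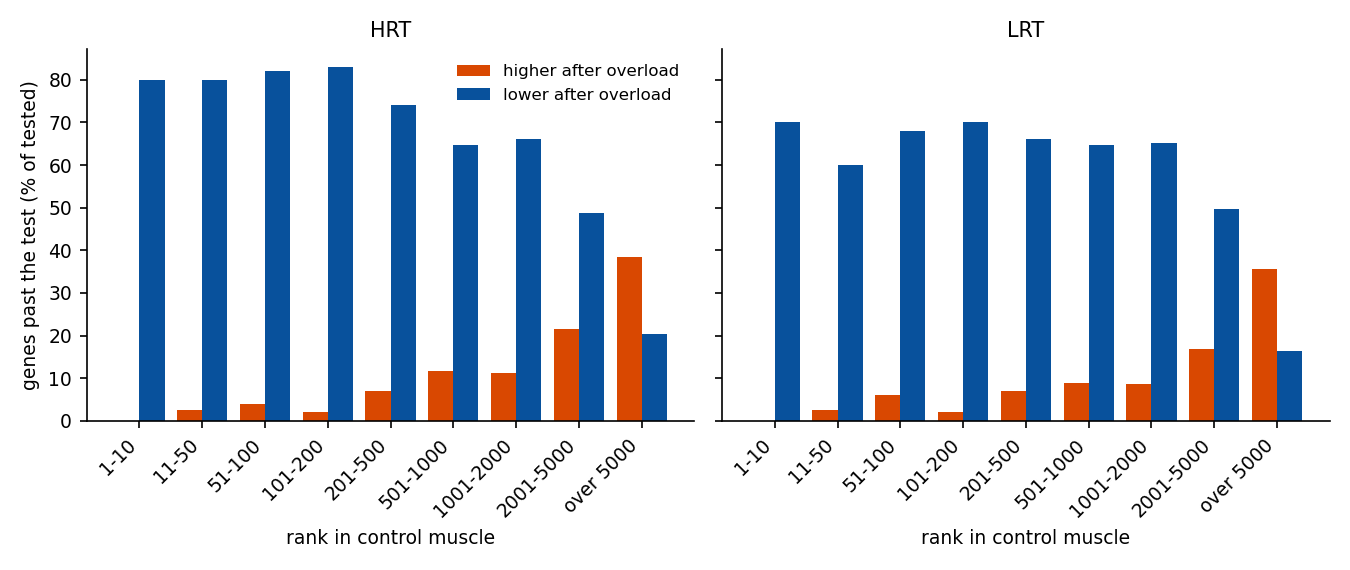
Percent of tested genes (y axis) that were higher or lower after overload in the edgeR test, by rank in control muscle (x axis), in HRT (left) and LRT (right). Falling genes make up 80.0 to 83.0% in the 4 bins up to rank 200 in HRT and 60.0 to 70.0% in LRT, and rising genes are the more frequent beyond rank 5000.

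The deepest falls among the members were in the same genes in both lines. ENSRNOG00000019745, of rank 11, had 5929 to 8347 TMM-scaled CPM in HRT control (median 7620) and 2099 to 4111 in HRT overload (median 2499.9). In LRT it had 7928 to 15036 in control (median 10051) and 3881 to 5699.9 in overload (median 4899). Neither line's groups overlapped, and its log2 fold changes were −1.41 ± 0.17 in HRT and −1.16 ± 0.17 in LRT (SE; edgeR adjusted p = 2.01e-07 and 4.23e-06). It went from rank 12 to rank 32 in HRT and from rank 11 to rank 21 in LRT. ENSRNOG00000057988, of rank 33, had 3067 to 3377 CPM in HRT control (median 3279) and 829 to 1834 in HRT overload (median 1178). In LRT it had 3143 to 4665 in control (median 3848) and 1303 to 2050.0 in overload (median 1834). Its groups did not overlap either, and its log2 fold changes were −1.35 ± 0.15 and −1.15 ± 0.15 (SE; edgeR adjusted p = 8.91e-08 and 1.37e-06).

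The rises were fewer and smaller. ENSRNOG00000007281, of rank 55, had 1524 to 2573 TMM-scaled CPM in HRT control (median 2066) and 2570 to 4011 in HRT overload (median 3703). In LRT it had 1843 to 2592 in control (median 1992) and 2668 to 4407 in overload (median 3314). The highest HRT control library reached the lowest HRT overload library, and the LRT groups did not overlap. The log2 fold changes were 0.76 ± 0.15 in HRT and 0.70 ± 0.15 in LRT (SE; edgeR adjusted p = 0.000144 and 0.000422). It was the 25th most abundant gene in HRT overload and the 30th in LRT overload.

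ENSRNOG00000017833, of rank 61, rose in HRT from 1661 to 2110 CPM in control (median 1820) to 1673 to 3479 in overload (median 2573), with overlapping groups (log2 fold change 0.48 ± 0.15, edgeR adjusted p = 0.00927). With RIN as a covariate this call was lost (log2 fold change 0.21, adjusted p = 0.463 by edgeR). The gene also rose in LRT, with a change of 0.59 on the log2 scale (edgeR adjusted p = 0.00247). ENSRNOG00000054493, of rank 90, had 504 to 1309 CPM in LRT control (median 1048) and 1046 to 2618 in LRT overload (median 1372). These groups overlapped, and the log2 fold change was 0.77 ± 0.22 (SE; edgeR adjusted p = 0.00446). In HRT it had 998 to 1834 CPM in control and 1319 to 1547 in overload (log2 fold change 0.08, edgeR adjusted p = 0.766), and the difference between the lines was 0.69 ± 0.31 (SE; edgeR adjusted p = 0.334).

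In both lines 64 members fell, which is 79.0% of those that fell in HRT and 98.5% of those that fell in LRT. Of all tested genes 22.6% fell in both lines. A further 17 fell in HRT alone and 1 in LRT alone, 2 rose in both lines (25.5% of all tested genes), and 13 passed in neither. No member rose in one line and fell in the other (0 members in the edgeR fit). Of the 64 members that fell in both lines, 56 had the larger fall in HRT. Across the 100 members, which are not independent replicates, the log2 fold changes of the lines gave a Pearson coefficient of 0.878 and a Spearman coefficient of 0.863. The lines share no libraries, and over all tested genes the Pearson coefficient was 0.899.

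**Figure D4:**
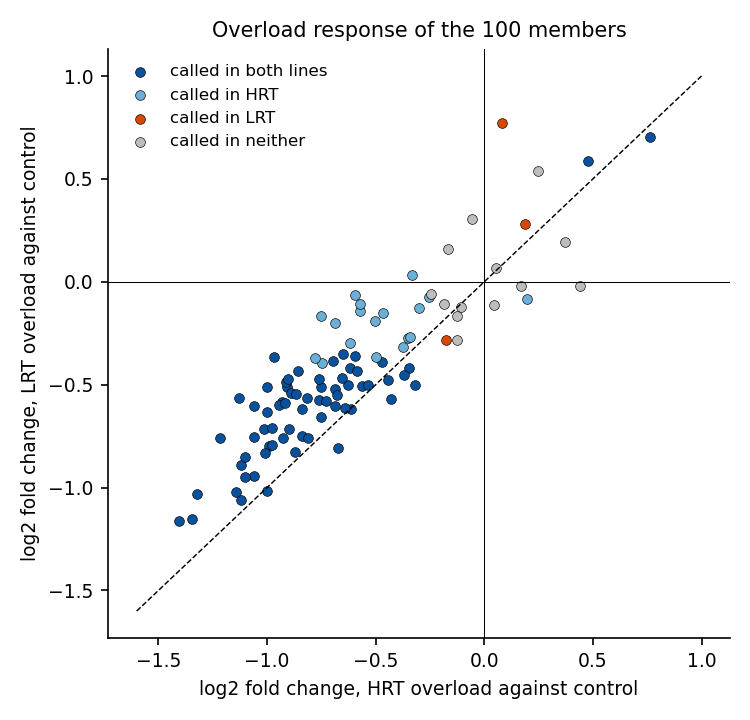
Log2 fold change of each member after overload in HRT (x axis) and LRT (y axis), on the TMM scale. Each point is 1 gene, coloured by the line in which it passed the edgeR test, and the dashed line marks equal responses. Most of the 64 genes that fell in both lines lie above the dashed line, where the fall is larger in HRT.

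The difference between the 2 responses was tested gene by gene, since the study's title asks about low responders. No member passed (0 of 100 by edgeR and 0 by limma-voom, against 0.048% of all tested genes by edgeR, 0.024% in each direction). DESeq2's Wald test called 4 members with the less negative or more positive response in LRT, where it called 0.396% of all tested genes in that direction. An unadjusted p under 0.05 in the edgeR test was found for 12 of 100 members, against 2265 of 16661 tested genes. The members' share was not above that of all tested genes. The members' responses in LRT exceeded those in HRT by a median log2 difference of 0.18, against −0.02 over all tested genes. The difference was positive for 82 members, against 7754 of 16661 tested genes and 80 of the next 100 genes in the control order. The smallest adjusted p belonged to the gene of rank 81, with a difference of 0.61 ± 0.15 (SE; edgeR adjusted p = 0.104). As a share of counts, the response of LRT differed from that of HRT by 4.35 percentage points (exact permutation p = 0.115, two-sided, over 853776 relabellings of line within state, adjusted p = 0.115), with members chosen on the controls of both lines. This difference did not pass the threshold, but its p-value is not read, because the control libraries that chose the members enter it.

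In control muscle the lines differed for few members. Of 100 members 2 were higher and 1 lower in LRT, where 1.22% and 0.75% of all tested genes were, 1.97% in all. The 12 libraries compared here also chose the members, so the counts and gene values of this comparison are descriptions. ENSRNOG00000006471, of rank 60, had 824 to 1777 TMM-scaled CPM in HRT control (median 1369) and 1959 to 3096 in LRT control (median 2291). ENSRNOG00000019627, of rank 29, had 2434 to 3545 in HRT control (median 3437) and 4372 to 6495 in LRT control (median 5108). For both genes the lines did not overlap, and the log2 fold changes, LRT against HRT, were 0.84 ± 0.18 and 0.67 ± 0.13 (SE; edgeR adjusted p = 0.0121 and 0.00625). ENSRNOG00000033615, of rank 74, had 1450 to 1851 CPM in HRT control (median 1736) and 755 to 1383 in LRT control (median 1002), again without overlap. Its log2 fold change was −0.72 ± 0.17 (SE; adjusted p = 0.0288 by edgeR), and this call was lost without any one of HRT control replicates 1, 3, 4 and 6 or LRT control replicates 3, 4 and 5 (edgeR adjusted p = 0.0508, 0.0556, 0.0702, 0.0584, 0.0775, 0.0827 and 0.0584) and with the replicate number as a block (0.0551). A fit to the 2 control groups alone called 17 members higher and 2 lower in LRT, where it called 1.87% and 1.31% of all tested genes. In all, 13 members were higher and 1 was lower in every LRT control library than in every HRT control library, where 1.75% and 0.9% of all tested genes were. The members held 54.6% ± 0.287 of counts in HRT control and 55.9% ± 1.07 in LRT control (SD, n = 6), with overlapping groups. A test of this share counts among the 5 share tests, but its p-value is not read, because the members were chosen on these 12 libraries.

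The same 3 genes separated the lines after overload. At rank 60 the gene had 571 to 1171 CPM in HRT overload (median 769) and 1387 to 1992 in LRT overload (median 1592). At rank 29 it was 1357 to 2144 in HRT overload (median 1452) and 2708 to 3439 in LRT overload (median 3256). Neither pair of groups overlapped, and the log2 fold changes of ENSRNOG00000006471 and ENSRNOG00000019627 were 0.97 ± 0.18 and 0.97 ± 0.13 (SE; edgeR adjusted p = 0.00503 and 0.000298). Rank 74, ENSRNOG00000033615, had 577 to 1157 CPM in HRT overload and 370 to 659 in LRT overload, with overlap. Its log2 fold change was −0.73 ± 0.17 (SE; adjusted p = 0.0245 by edgeR), and it no longer passed without LRT overload replicate 3 or 6 (edgeR adjusted p = 0.056 and 0.0505), in a fit to the 2 overloaded groups alone (0.122) or with RIN as a covariate (0.0609). All 3 genes also fell after overload in both lines, but with libraries scaled by their totals alone rank 60 no longer passed in LRT (log2 fold change −0.30, adjusted p = 0.128 by edgeR).

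In overloaded muscle, whose libraries did not choose the members, 16 members were higher and 1 lower in LRT, where 1.6% and 1.49% of all tested genes were, 3.09% in all. The median log2 difference of the members was 0.33, against −0.01 over all tested genes. It was positive for 89 members, against 8047 of 16661 tested genes. Of the next 100 genes in the control order 90 had a positive difference, so this lean was not particular to the members. The count of 16 moved with single libraries. It was 6, 7 and 6 without HRT overload replicates 1, 2 and 6, and 43 and 45 without HRT overload replicates 3 and 4. It was 44 without LRT overload replicate 2, and 8, 6, 7, 6 and 8 without LRT overload replicates 1, 3, 4, 5 and 6. Over these fits the share of all tested genes that was higher in LRT ran from 0.651% to 4.33%. A fit to the 2 overloaded groups alone called 2 members higher and 0 lower, where it called 0.504% and 0.203% of all tested genes. In all, 3 members were higher in every LRT overload library than in every HRT overload library and 0 were lower, against 0.864% and 0.696% of all tested genes. With RIN as a covariate the count was 28 higher and 0 lower, where 2.26% and 2.45% of all tested genes were.

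The members' share of counts was 51.0% ± 2.21 in LRT overload and 45.4% ± 4.79 in HRT overload (SD, n = 6; exact permutation p = 0.0281, two-sided, adjusted p = 0.0352). The groups overlapped, since HRT overload replicates 3, 4 and 5 lay above the lowest LRT overload library. This call was lost without any one of HRT overload replicates 1, 2 and 6 and LRT overload replicates 3, 4, 5 and 6. The difference was then 4.75, 4.68, 4.89, 5.56, 5.22, 5.32 and 5.50 percentage points (exact permutation p = 0.0584, 0.0584, 0.0563, 0.0519, 0.0541, 0.0541 and 0.0541).

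Overloaded libraries varied more than controls, most of all in HRT. The SD of a member's log2 level between the 6 libraries had a median of 0.11 in HRT control and 0.38 in HRT overload, and of 0.16 in LRT control and 0.21 in LRT overload. It was larger after overload for 92 members in HRT and 66 in LRT, where 68.7% and 55.3% of all tested genes had the larger SD after overload. Genes outside the list down to rank 1000 had median SDs of 0.09 in HRT control and 0.26 in HRT overload. When each member was expressed as a share of the members' own total, the median SD in HRT overload was 0.18, against 0.11 in HRT control. In LRT this SD was no larger after overload, at 0.14 against 0.15 in control. The largest SD of a member within a group was that of the gene of rank 36 in LRT control, at 0.96, where it ran from 809 to 5982 CPM with a median of 3344.

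Expressed within the members' own total, which needs no scaling, the list was also reordered. In HRT 66 members took a smaller and 34 a larger part of the members' counts after overload, and in LRT 62 and 38. The log2 change of this part ran from −0.88 (rank 11) to 1.33 (rank 55) in HRT and from −0.78 (rank 33) to 1.12 (rank 90) in LRT. In HRT 30 members were smaller and 13 larger in every overloaded library than in every control library, and in LRT 20 and 9. This measure exists for members alone, so no share over all tested genes stands beside these counts. On the TMM scale, a different measure, 17.1% of all tested genes were lower and 21.4% higher without overlap in HRT. In LRT these shares were 15.5% and 17.3%.

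Overload also brought other genes among the 100 most abundant. By group means, 81 members kept such a place in HRT overload and 87 in LRT overload. In the HRT and LRT controls 97 and 98 did, but those libraries chose the members, so they are no independent baseline. The 19 members that left in HRT and the 13 that left in LRT all came from ranks above 50. The lowest place was that of rank 100 in HRT overload, now 227, and that of rank 74 in LRT overload, now 158. Of the genes that entered, 12 were shared by both lines. The highest was the same in both, a gene of rank 270 in control muscle with 325 CPM. It had 4269 to 14213 CPM in HRT overload and 2583 to 8279 in LRT overload, which placed it 8th and 18th. The deepest control rank among the entrants was 5537 in HRT (16.2 CPM in control, 122 to 1983 in HRT overload) and 4967 in LRT (19.0 CPM in control, 208 to 2314 in LRT overload). Entrants together held 4.26% of counts in HRT overload and 2.21% in LRT overload.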

How the data were processed

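Per the labels' protocols, libraries were prepared with a TruSeq kit from total plantaris RNA. The deposited table holds estimated counts per Ensembl gene ID, not normalized. Salmon 0.9.1 is named in the submitters' processing notes, as are rn6 and Rnor_6.0; its settings and annotation are not given in the sources. Estimated counts divide reads between similar genes, so near-identical genes are uncertain. All 24 columns matched a sample title.

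Counts were rounded. Genes were kept by edgeR's filterByExpr (minimum count 10, minimum total 15), which left 16661 of 31998. After TMM scaling, a robust quasi-likelihood model of the 4 group means used all 24 libraries (edgeR 4.0.16, R 4.3.3), with Benjamini-Hochberg adjustment over all tested genes and a threshold of 0.05. Standard errors were approximated as the size of a log2 fold change divided by √F. SDs of log2 levels used log2(CPM + 0.5). Exact permutation tests enumerated 924 splits of 6 against 6 libraries. The labels do not say that libraries come from separate animals, so p-values cover only the spread between the libraries, which may be technical. In simulated HRT overload data with 16384 tested genes, 44.4% of genes changed 1.5-fold, 84.2% changed 2-fold and 91.4% changed 4-fold were recovered, with 5 unchanged genes called. Only 54, 76 and 70 genes were changed by these folds, up or down at random. In the data 63.2% of tested genes passed in HRT, a setting that the simulation does not cover. Within groups, no pair of libraries agreed within sampling noise (lowest chi-square per degree of freedom 11.6 over 60 pairs).

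The members and all lists were chosen with earlier results of these data known. The rule for named genes allowed at most 2 IDs per direction, those with the largest change past the threshold. Role and cell type lists could not be applied, because 0 IDs matched the 47357 named genes of GRCr8. Ranks are used for other members, and those described were picked after their values were seen. Alternatives were DESeq2 1.42.0, limma-voom (limma 3.58.1), DESeq2 size factors, library totals, no filter, RIN, the replicate number as a block, the compared groups alone, other sizes of the list and each library left out. Scaling by totals without the members, and the next 100 genes, were alternatives chosen after seeing the data.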

Additional observations from a re-analysis of the deposited data

Results flagged for a closer look

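In all, 3 values stood far from the other 5 libraries of their group, out of 48 groups of 6 checked, and chance alone marks about 1 in 20. The members' share of counts was 46.7% in LRT overload replicate 2, against 51.0% to 52.9% in the other LRT overload libraries. The share held by ranks 11 to 50 was 14.6% in the same library, against 15.9% to 16.5%. ENSRNOG00000019627, of rank 29, had 2434 TMM-scaled CPM in HRT control replicate 4, against 3353 to 3545 in the other HRT control libraries. Without that library its line difference in control muscle still passed the edgeR test, as it did without each other library in turn.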

How the results depend on the processing

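All counts are percent of the list, and a list other than the 100 members is named. Brackets give the share of all tested genes called in the same fit and direction. Members higher in HRT overload numbered 6 with DESeq2 (32.2%), 9 with library totals (47.7%) and 6 with totals without the members (32.9%). Leaving out 1 library gave 2 to 5 (30.5% to 32.1%). In LRT overload they numbered 9 with library totals (40.6%). They were 2 of every 100 for the 50 most abundant genes and 2 for the next 100 genes (28.9% for both). For the difference between responses DESeq2 called 4 higher (0.396%), and leaving out 1 library gave 0 to 1, the 1 without HRT overload replicate 3 (0.0536%). Between lines in control muscle DESeq2 called 7 higher (2.34%), the compared groups alone 17 (1.87%) and the next 100 genes 1 (1.22%). Lower calls there were 2 in the compared groups alone (1.31%) and 0 with the replicate block (0.714%). They were 0 for the 50 most abundant and the next 100 genes, and 0.5 for the 200 most abundant (0.75% for these lists). Leaving out 1 library gave 0 to 1 (0.381% to 1.14%). Between lines in overloaded muscle, higher calls were 39 with DESeq2 (3.23%), 28 with RIN (2.26%) and 2 in the compared groups alone (0.504%). They were 25 with library totals (1.35%), 10 without a filter (0.659%) and 27 with the replicate block (1.9%). The 200 most abundant genes gave 10 and the next 100 genes 4 (1.6% for both). Leaving out 1 library gave 6 to 45 (0.651% to 4.33%). Lower calls there were 0 with RIN (2.45%) and 0 in the compared groups alone (0.203%). They were 0 for the 50 most abundant and the next 100 genes, and 0.5 for the 200 most abundant (1.49% for these lists). Leaving out 1 library gave 0 to 1 (0.351% to 5.48%). The line difference in member share after overload was 4.68 to 6.74 percentage points leaving out 1 library. The causes were not tested. Of 294 values of the 14 tests on named genes, 281 stayed on their side of the threshold, 13 lost it and 0 reversed.

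Replicate numbers did not pair the samples: same-numbered libraries correlated over 0.1 in 1 of 12 pairs (−0.125 to 0.123), and 3 of 12 libraries correlated best with their own number. With the replicate block, 81 members fell and 4 rose in HRT overload, where 31.7% of all tested genes fell and 31.8% rose. In LRT overload 67 fell and 4 rose with that block, where 28.4% of all tested genes fell and 28.6% rose. Choice by transcript length, a denominator without mitochondrial genes and shares of role groups were not run, because no ID could be named. All 100 members passed the filter on low counts, and the lowest control mean among them was 909 CPM.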

Other observations

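Just outside the list, the gene of rank 103 owed its place to 2 control libraries. Its mean over the 12 control libraries was 888 ± 1078 CPM (SD), while its median was 395 CPM and its 2 highest libraries were at 3145 and 3137 CPM. Its highest overloaded library was at 1136 CPM. This gene was singled out after its values were seen.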
